A study of Mus musculus with 88 samples.

Results

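The genes described here are 10 markers of astrocytes: Gfap, Aqp4, Aldh1l1, Slc1a2, Slc1a3, Gja1, Gjb6, Glul, S100b and Sox9. They were chosen by symbol as textbook markers and found by their Ensembl identifiers in the GRCm38 annotation, and they make up 10 of the 48811 genes listed over the 3 expression tables of the study. RNA-seq was done on the medial prefrontal cortex (mPFC), the bed nucleus of the stria terminalis (BNST) and the ventral hippocampus (vHPC) of male C57BL/6Crl (B6) and DBA/2Crl (D2) mice that were 8 weeks old; the study's methods give the substrains as C57BL/6NCrl and DBA/2NCrl. Stressed mice went through chronic social defeat stress (CSDS), in which an aggressive mouse defeats the subject on successive days, and each was called resilient or susceptible from its social interaction score against the controls of its own strain; control mice were not defeated. Tissue was taken 6 to 8 days after the last defeat, and all mice lived alone after CSDS. The mPFC had 6 control, 6 resilient and 6 susceptible B6 libraries, and 6 control and 8 susceptible D2 libraries. The BNST had 5 libraries in each B6 group, 5 from D2 controls, 3 from resilient D2 mice and 5 from susceptible D2 mice. The vHPC had 6 control, 8 resilient and 3 susceptible B6 libraries, and 6 control and 5 susceptible D2 libraries. The 88 libraries came from 81 mice, since the mPFC and the vHPC were both sequenced in 7 of them.

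Astrocytes take up glutamate from the synaptic cleft, convert it to glutamine, buffer water and potassium, and share ions and metabolites through gap junctions. Slc1a2 and Slc1a3 encode the astrocyte glutamate transporters GLT-1 and GLAST, and Glul encodes glutamine synthetase. Aqp4 encodes the water channel of the astrocyte endfoot, Gja1 and Gjb6 the gap junction proteins connexin 43 and connexin 30, Aldh1l1 a folate enzyme, Gfap an intermediate filament protein, S100b a calcium binding protein and Sox9 a transcription factor of glial cells. S100b and Glul are also made by part of the oligodendrocyte lineage, and Gfap rises when astrocytes become reactive. These libraries came from bulk tissue, in which fewer cells of a type and less RNA per cell cannot be told apart.

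All 10 genes were above the expression filter in each region. Among B6 controls of the mPFC, the levels per kilobase of exon fell in the order Slc1a2, Glul, Slc1a3, S100b, Aqp4, Gja1, Gfap, Aldh1l1, Gjb6 and Sox9, from 8.10 ± 0.137 log2 CPM per kb for Slc1a2 to 2.228 ± 0.244 for Sox9 (SD, n = 6). The ranges of neighbours in that order overlapped for Slc1a3 and S100b, for Gja1 and Gfap, and for Aldh1l1 and Gjb6. Within their own tables, Slc1a2 stood at the 99.8th, 99.7th and 99.9th percentile of genes per kilobase in the mPFC, BNST and vHPC of B6 controls. Slc1a2 and Glul held the top places in all 3 regions, with Glul at 8.41 ± 0.0809 and Slc1a2 at 8.37 ± 0.0577 log2 CPM per kb in the vHPC, where their ranges overlapped.

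Gfap and Sox9 changed rank most between the tables. Per kilobase in B6 controls, Gfap was at 6.44 ± 0.0939 log2 CPM in the vHPC (SD, n = 6), the third of the 10 genes, at 4.29 ± 0.271 in the mPFC and at 3.37 ± 0.849 in the BNST. Sox9 was the lowest of the 10 in the vHPC (31.3rd percentile of genes) and in the mPFC (48.6th), and sat beside Aqp4 in the BNST (86.3rd), with overlapping ranges. The 3 tables were made with different library kits and normalized separately, so region and kit cannot be told apart in these ranks, and no test was made between regions.

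**Figure D1:**
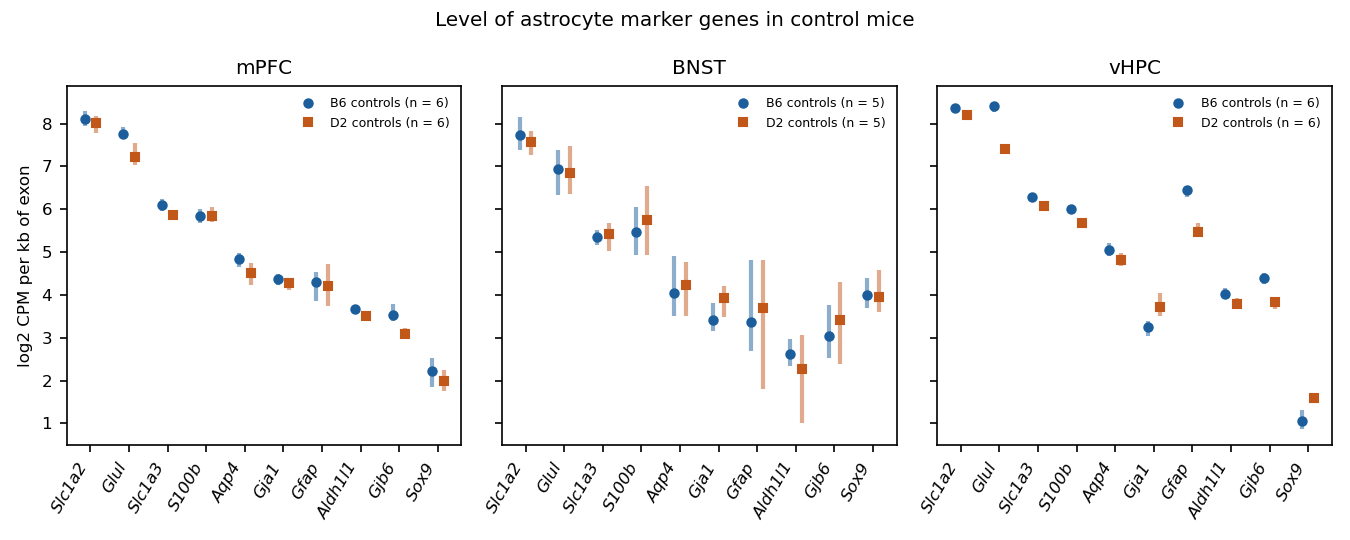
Level of each astrocyte marker gene in control mice, as log2 CPM per kilobase of exon, for the mPFC, BNST and vHPC. Each point is the mean of the controls of a strain, and each line runs from their lowest to their highest library. Slc1a2 and Glul lie highest in every region, while Gfap is near the top only in the vHPC and Sox9 is lowest in the mPFC and vHPC.

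In the vHPC, the libraries of stressed mice differed from controls in genes that separate the strains, which bears on each vHPC result below. Of the genes in all 3 tables, 106 differed between the strains by at least 2 log2 units in mPFC controls (30 higher and 76 lower in D2), and a strain index was taken as the mean of the former minus the mean of the latter. In the BNST the index of B6 controls, resilient and susceptible mice averaged -4.03, -4.07 and -3.95, and that of the 3 D2 groups lay between 2.86 and 2.96. In the vHPC it averaged -7.205 ± 0.175 in B6 controls (n = 6), -3.80 ± 0.279 in resilient B6 mice (n = 8), -2.34 ± 0.360 in susceptible B6 mice (n = 3), 3.52 ± 0.554 in D2 controls (n = 6) and 6.03 ± 0.464 in susceptible D2 mice (n = 5), and the ranges of these 5 groups were separate. Resilient and susceptible B6 mice thus stood at 31.8% and 45.4% of the distance from B6 to D2 controls, and susceptible D2 mice at 123%. In the mPFC, whose controls chose the genes, the stressed B6 groups stood at 3.1% and 8.35% and the susceptible D2 mice at 103%. The 2 resilient B6 mice with a library from both regions had an index of -4.00 and -4.10 in mPFC tissue, against -3.92 and -3.96 in their vHPC libraries. The 2 such B6 controls had -3.97 and -4.65 in mPFC tissue, against -7.25 and -7.10 in their vHPC libraries. The D2 control sequenced in both regions had 2.987 in mPFC tissue, against 3.123 in its vHPC library. The 2 such susceptible D2 mice had 2.81 and 3.61 in mPFC tissue, against 6.11 and 5.22 in their vHPC libraries. All 6 B6 control libraries of the vHPC were in sequencing set 1 and 7 of the 8 resilient ones in set 2, and no library preparation set held both a control and a stressed B6 library. The resilient library sequenced in set 1 had an index of -4.07, beside the other resilient libraries. No library preparation set held controls of both strains. Preparation sets 6 and 9 held B6 controls alone, and the other B6 control, replicate 2, shared set 5 with 2 susceptible D2 libraries. Of the susceptible D2 libraries only replicate 5 shared a set, 8, with a D2 control. A fit with library set as a covariate thus compares B6 controls through replicate 2 and susceptible D2 mice through replicate 5. The part of these sets and of the authors' adjustment for them in the gradient was not tested, nor was whether a library held RNA of both strains. In the mPFC, 5 of the 6 susceptible B6 libraries shared the animal ID prefix C7, against 1 of the 6 controls. In the BNST the total counts ran from 11825757 to 25793910, and 5 libraries were high in markers of cortical excitatory neurons (5 genes, Slc17a7 among them). The mean of these markers was 5.74, 6.503 and 6.85 log2 CPM in B6 resilient replicates 2, 3 and 5, 5.73 in D2 susceptible replicate 1 and 5.16 in B6 control replicate 2, against 2.61 to 4.78 in the other libraries. Their neuronal marker means were 8.60, 8.74, 8.69, 8.16 and 8.141, against 7.72 to 8.45 in the others. BNST results without these 5 libraries, an alternative added after seeing the data, are given beside the main ones.

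**Figure D2:**
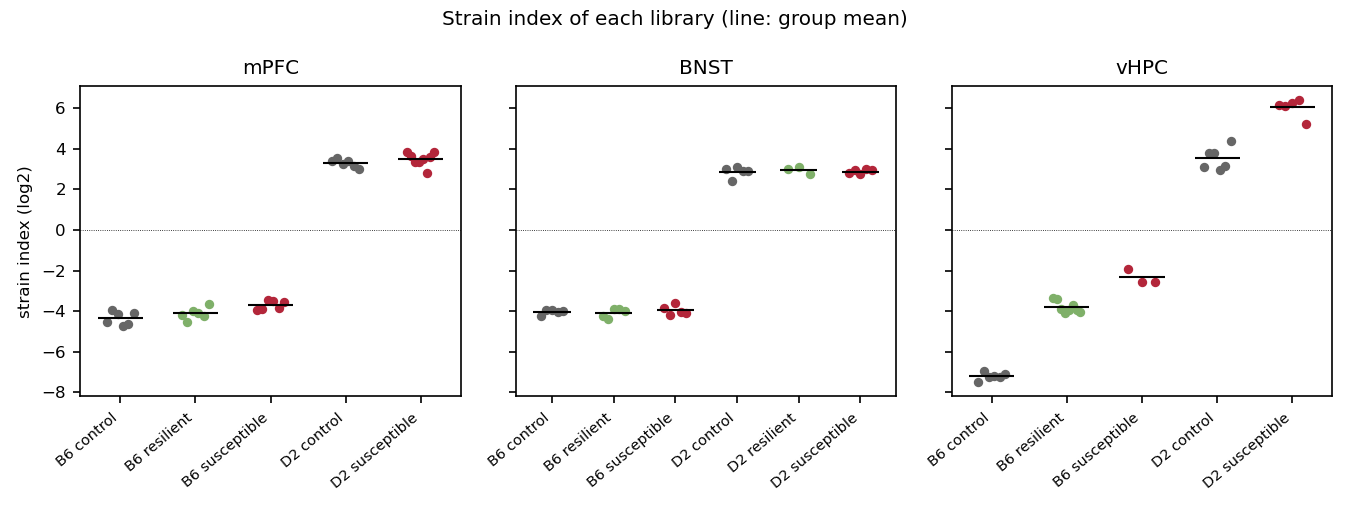
Strain index of each library in log2 units, by region and group, where each point is a library and each line a group mean. The B6 groups lie together in the mPFC and BNST, whereas in the vHPC the index rises from B6 controls through resilient to susceptible B6 mice and from D2 controls to susceptible D2 mice.

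In the mPFC, 5 of the 10 genes were lower in D2 than in B6 controls by limma and none was higher, against 27.8% of all genes tested called in either direction and 14.4% called lower. Those 5 were the gap junction gene Gjb6, the glutamine synthetase gene Glul, the water channel gene Aqp4, the glutamate transporter gene Slc1a3 and Aldh1l1. Glul (chr1:153899944-153909723) ran from 9.37 through a median of 9.47 to 9.64 log2 CPM in the 6 B6 controls, and from 8.77 through 8.93 to 9.28 in the 6 D2 controls. The groups did not overlap, and Glul fell by 0.53 ± 0.0849 on the log2 scale (SE; adjusted p = 1.69e-05). Gjb6 (chr14:57123303-57133611) ran from 4.81 through 4.92 to 5.20 in B6 controls and from 4.41 through 4.50 to 4.64 in D2 controls, again without overlap, a difference of -0.44 ± 0.0643 (adjusted p = 4.38e-06). Glul shares 116 bases with the exons of Teddm2 on the opposite strand, and how strand entered the counting is not given in the sources used here, so reads there are uncertain, as they are for the exon bases that Slc1a2 (189) and Aldh1l1 (499) share with antisense genes. Reads are also uncertain, whatever the strand, in the 93 bases that Glul shares with Mir8114 and the 105 that Aldh1l1 shares with Gm45901 on the same strand.

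The other strain differences in the mPFC were smaller. Aqp4 differed by -0.32 ± 0.0935 (adjusted p = 0.00974), Slc1a3 by -0.23 ± 0.0595 (adjusted p = 0.00385) and Aldh1l1 by -0.16 ± 0.0450 (adjusted p = 0.00747). Of the 10 genes, 3 had groups that did not overlap (Glul, Gjb6 and Aldh1l1), against 11.7% of all genes. The other 5 genes did not pass the test, and differed by -0.24 (Sox9, adjusted p = 0.111), -0.11 (Gja1, adjusted p = 0.116), -0.08 (Gfap), -0.07 (Slc1a2) and 0.01 (S100b). Sox9 passed without B6 control replicate 5 (adjusted p = 0.0349) and Gja1 without B6 control replicate 2 (adjusted p = 0.04996). All 10 oligodendrocyte markers were also lower in D2 mPFC controls, with a median log2 fold change of -0.88, and their part in the difference of Glul was not tested.

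In the BNST, none of the 10 genes passed edgeR's test between D2 and B6 controls, where 2.51% of genes were called. Gja1 (chr10:56377330-56402513) came nearest, with 6.78 ± 0.239 log2 CPM in B6 controls and 7.28 ± 0.291 in D2 controls (SD, n = 5), a difference of 0.51 ± 0.146 (adjusted p = 0.0652). Of the 10 genes it alone had an unadjusted p under 0.05 (13.4% of all genes). DESeq2 called Gja1 with a difference of 0.52 (adjusted p = 0.0219), and so did limma after voom and ComBat (0.51, adjusted p = 0.0470). Of all genes, DESeq2 called 660 in this comparison and limma after voom and ComBat 583, against 439 by edgeR. In edgeR it passed without B6 control replicate 5 (adjusted p = 0.0192) or D2 control replicate 1 (adjusted p = 0.0142). In the mPFC the same gene differed by -0.11 and was not called.

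In the vHPC all 10 genes differed between D2 and B6 controls by limma, where 59.3% of all genes did. Of these, 8 were lower in D2, with Glul at 10.01 to 10.23 log2 CPM in B6 controls and 9.04 to 9.25 in D2 controls and a difference of -1.01 (adjusted p = 3.63e-15). Gfap followed with a difference of -0.97 (adjusted p = 4.51e-10), and Gjb6 with -0.56. Gja1 and Sox9 were higher in D2, by 0.47 and 0.52. Aqp4, at -0.25, was lost without B6 control replicate 6 (adjusted p = 0.0536) or D2 control replicate 6 (adjusted p = 0.0519). No library preparation set held controls of both strains, so strain and library set cannot be told apart in these values. With library set as a covariate the comparison rests on 1 B6 control library (replicate 2), so no calls of that fit are given.

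**Figure D3:**
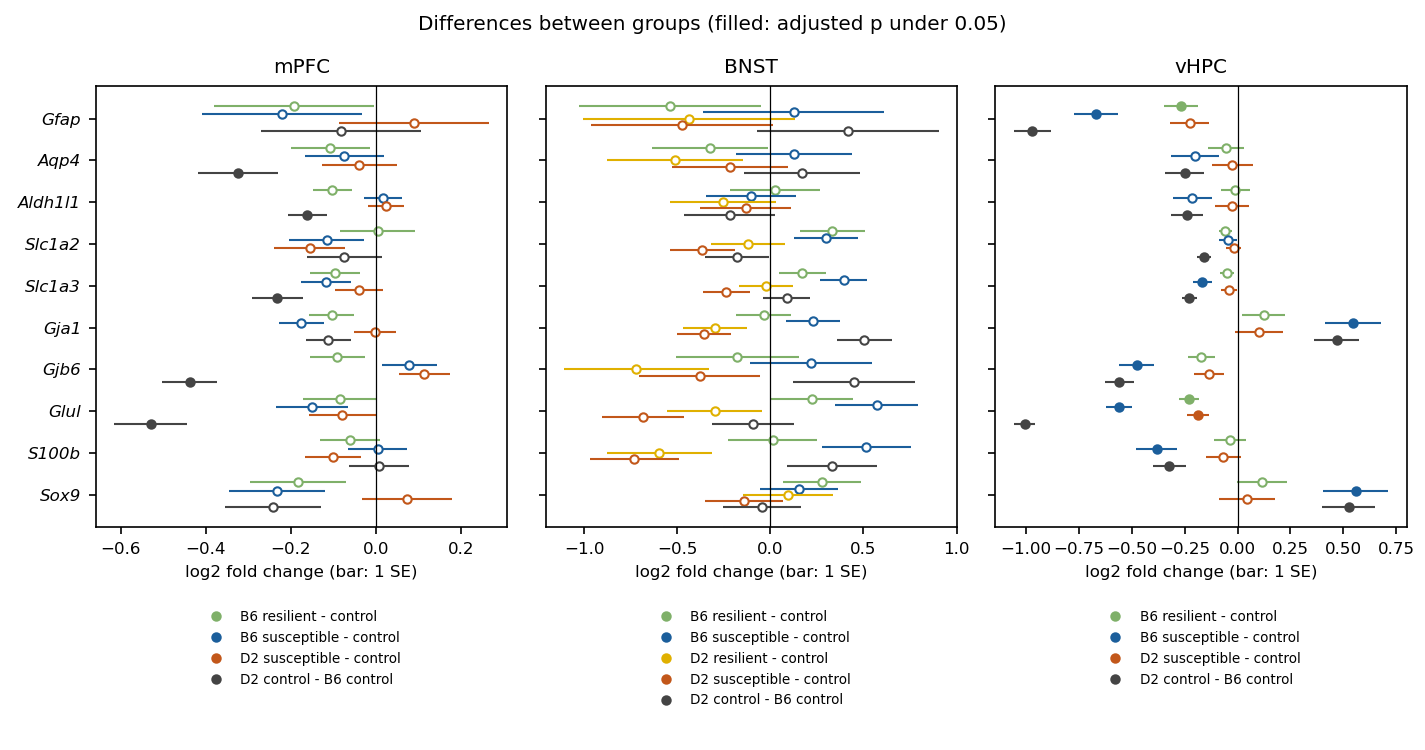
Log2 fold change with 1 SE of each gene in 4 comparisons of the mPFC and vHPC and 5 of the BNST, with filled points where the adjusted p was under 0.05; the 3 panels have separate horizontal scales. The filled points of the mPFC belong to the strain comparison, the BNST panel has none, and the vHPC panel has filled points in all 4 comparisons.

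In the mPFC, CSDS did not move any of the 10 genes past the limma threshold in either strain. Of all genes tested, 2.22% were called in susceptible B6 mice, 2.02% between susceptible and resilient B6 mice, and 0% in resilient B6 mice, in susceptible D2 mice and in the strain by susceptibility interaction. An unadjusted p under 0.05 was seen for 1 of the 10 in resilient B6 mice (3.86% of all genes), for 2 in susceptible B6 mice (18.2%), for none in susceptible D2 mice (3.87%), for 2 between susceptible and resilient B6 mice (19.6%) and for 1 in the interaction (9.32%). The fold changes of the 10 genes ran from -0.23 to 0.08 on the log2 scale in susceptible B6 mice, with a median of -0.12, beside a median of 0.00023 over all genes tested. Gja1, the connexin 43 gene, came closest, with 7.60 to 7.84 log2 CPM (median 7.76) in B6 controls, 7.55 to 7.79 (median 7.62) in resilient and 7.46 to 7.72 (median 7.56) in susceptible mice. These ranges overlapped, and the difference of susceptible mice was -0.18 ± 0.0531 (adjusted p = 0.0724). It passed without B6 control replicate 2 (-0.20, adjusted p = 0.0411) and without B6 susceptible replicate 4 (-0.21, adjusted p = 0.0317). In the same comparison 9 of 10 oligodendrocyte markers fell, with a median of -0.78, and their mean ran from 6.32 to 7.35 log2 CPM in controls and 5.83 to 6.57 in susceptible B6 mice. S100b, which the oligodendrocyte lineage also makes, ran from 6.26 to 6.57 log2 CPM in the same controls and from 6.28 to 6.55 in the susceptible mice.

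In the BNST none of the 10 genes passed edgeR's test in either strain after CSDS, and 0% of the 17515 genes tested were called against controls in each of the 4 stressed groups. Between susceptible and resilient B6 mice 0.00571% of genes were called, none of them among the 10, of which 1 had an unadjusted p under 0.05 (7.55% of all genes). With unadjusted p under 0.05, 3 of the 10 were counted in susceptible B6 mice (6.37% of all genes), 4 in susceptible D2 mice (6.03%), 1 in resilient D2 mice (5.44%) and none in resilient B6 mice (1.87%), and DESeq2 called none of them. Without the 5 libraries high in cortical markers none of the 10 was called in any of the BNST comparisons. Glul was at 8.06, 8.35, 8.99, 9.11 and 8.83 log2 CPM in the B6 controls, and at 8.96, 8.71, 9.85, 9.33 and 9.35 in susceptible B6 mice. Among D2 mice it was at 8.66, 8.08, 8.46, 9.22 and 8.47 in controls and at 8.18, 7.85, 8.03, 7.64 and 7.96 in susceptible mice. The B6 and D2 control ranges overlapped, and each susceptible group overlapped its own controls. Glul differed from controls by 0.57 ± 0.221 in susceptible B6 mice (adjusted p = 0.694) and by -0.68 ± 0.221 in susceptible D2 mice (adjusted p = 0.601).

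The contrast that asks whether the strains responded differently, the effect in D2 minus the effect in B6, was negative for all 10 genes in the BNST, with a median of -0.60 beside -0.04 over all genes tested. None passed edgeR's test (0% of all genes called), while 5 of the 10 had an unadjusted p under 0.05, against 11.4% of all genes. Glul differed by -1.25 ± 0.313 (adjusted p = 0.0961), S100b by -1.25 (adjusted p = 0.121) and the GLAST gene Slc1a3 by -0.63 (adjusted p = 0.139). DESeq2 called these 3 genes, with Glul at -1.27 (adjusted p = 0.0141), S100b at -1.26 (adjusted p = 0.0312) and Slc1a3 at -0.65 (adjusted p = 0.0261). Of all genes, DESeq2 called 223 in this contrast, where edgeR called 0. In edgeR, Glul passed without B6 control replicate 4 (adjusted p = 0.0443), and without the 5 libraries high in cortical markers it stood at -1.24 (adjusted p = 0.260). With library sizes unscaled by TMM, whose factors ran from 0.656 to 1.27, the median of all genes in this contrast became 0.53 and Glul was at -0.69 (adjusted p = 0.0773). These factors ran from 1.118 to 1.273 in susceptible D2 mice and from 0.656 to 0.970 in susceptible B6 mice, without overlap. Susceptible D2 replicates 1, 2, 4 and 5 were each in only 1 sequencing set, and every other BNST library was in more than 1. The part of these sequencing sets in the contrast was not tested.

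The mean of 10 oligodendrocyte markers was set beside these genes in the BNST. It ran from 7.208 to 8.60 log2 CPM in B6 controls, 7.90 to 8.93 in susceptible B6 mice, 7.31 to 8.92 in D2 controls and 6.73 to 8.35 in susceptible D2 mice, and none of these markers was called in either susceptible group. S100b (chr10:76253853-76261159) was at 5.54, 5.51, 6.27, 6.22 and 6.62 log2 CPM in B6 controls, at 6.79, 5.98, 6.48, 6.92 and 6.72 in susceptible B6 mice, at 6.05, 5.51, 6.27, 7.11 and 6.70 in D2 controls and at 5.54, 5.67, 5.45, 5.52 and 6.18 in susceptible D2 mice. With the oligodendrocyte marker mean as a covariate, the interaction was -0.35 for S100b (adjusted p = 0.484) and -1.05 for Glul (adjusted p = 0.127), while that of the glutamate transporter genes was -0.96 for Slc1a2 (adjusted p = 0.0522) and -0.71 for Slc1a3 (adjusted p = 0.0663). In the fit without it, Slc1a2 stood at -0.66 (adjusted p = 0.250). Of all genes, 249 were called in the interaction with the marker mean as a covariate and 0 without it.

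**Figure D4:**
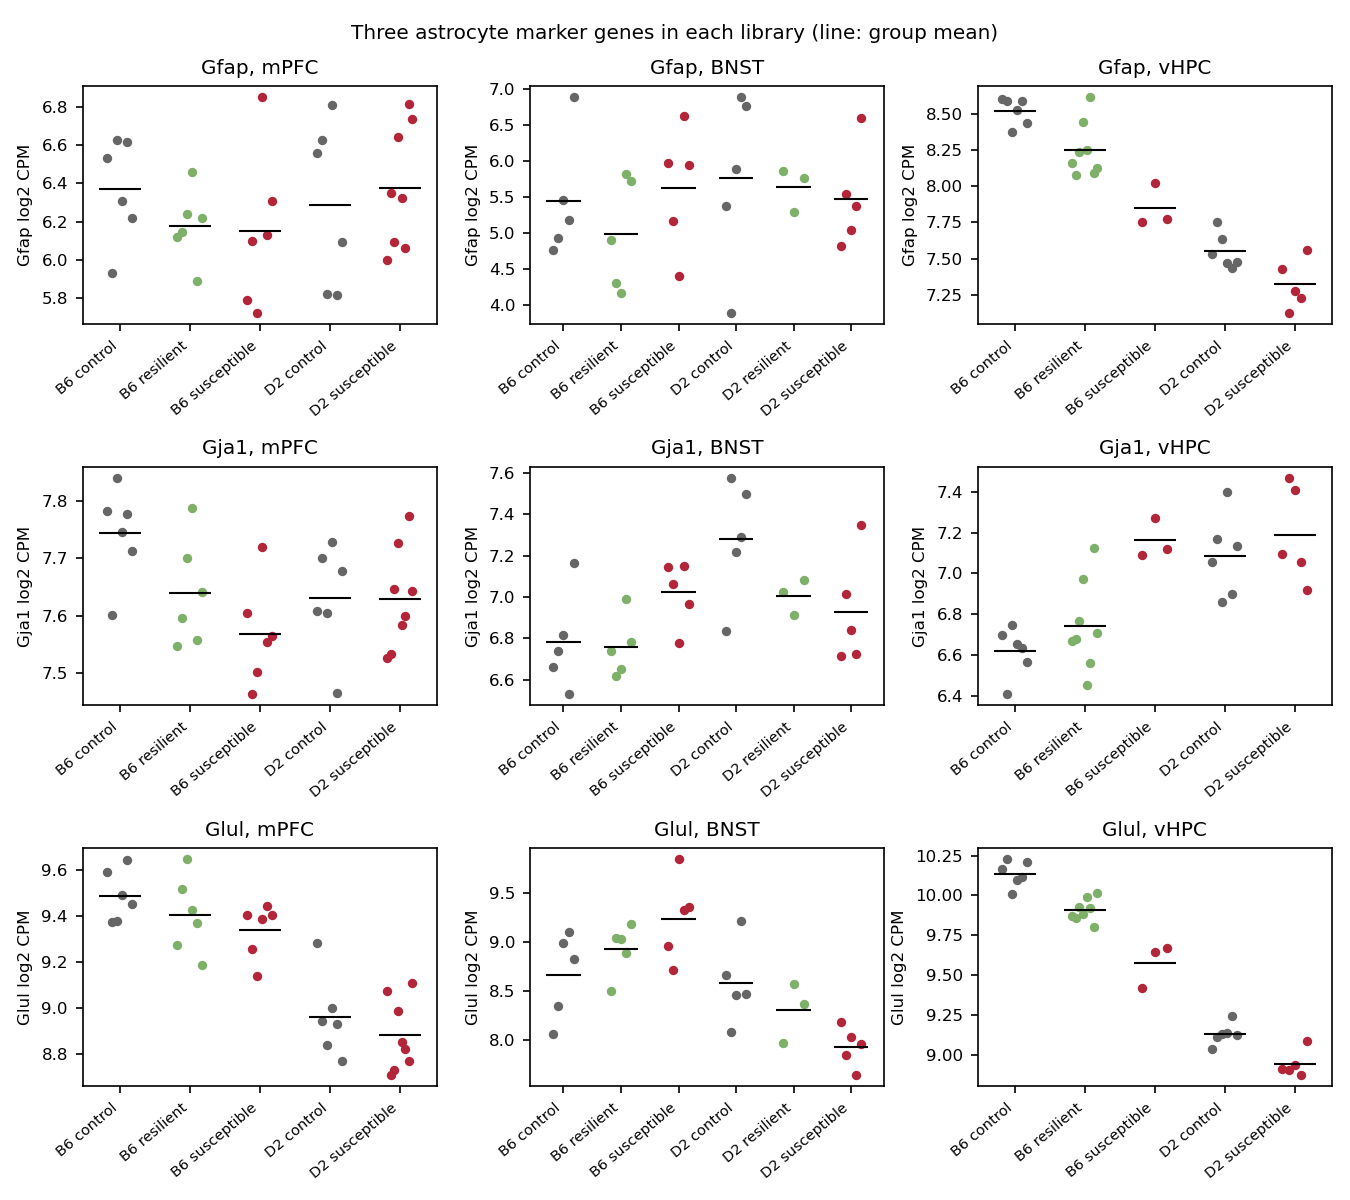
Log2 CPM of Gfap, Gja1 and Glul in each library of the 3 regions, where each point is a library and each line a group mean. In the BNST the mean Glul of susceptible B6 mice lies above that of susceptible D2 mice, and in the vHPC the mean Glul and Gfap of B6 mice step down from controls through resilient to susceptible mice.

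In the vHPC, 7 of the 10 genes differed between susceptible and control B6 mice by limma, against 40.6% of all genes tested: Glul, Gfap, Gjb6, S100b and Slc1a3 were lower, and Gja1 and Sox9 higher. Glul was at 9.42, 9.64 and 9.67 log2 CPM in the 3 susceptible mice, below the 10.01 to 10.23 of the 6 controls, a difference of -0.56 ± 0.0611 (adjusted p = 1.72e-07). Gfap (chr11:102887336-102900912) was at 7.75, 8.02 and 7.78 in the susceptible mice and at 8.37 to 8.60 in controls, also apart, a difference of -0.67 ± 0.105 (adjusted p = 3.27e-05). Gja1 was at 7.09, 7.27 and 7.12 in the susceptible mice and 6.41 to 6.75 in controls, a difference of 0.54 ± 0.131 (adjusted p = 0.00218). Gjb6 differed by -0.47 ± 0.0829 (adjusted p = 0.000103), S100b by -0.38 ± 0.0967 (adjusted p = 0.00315), Slc1a3 by -0.17 ± 0.0447 (adjusted p = 0.00496) and Sox9 by 0.56 ± 0.155 (adjusted p = 0.00617), and Sox9 was lost without B6 susceptible replicate 2 (0.41, adjusted p = 0.0787). The gap junction genes thus moved in opposite directions, and the transporter gene Slc1a2 differed by -0.04. Aldh1l1, at -0.21, passed without B6 susceptible replicate 3 (adjusted p = 0.0496).

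In resilient B6 mice 2 of the 10 genes were lower than in controls of the vHPC and none was higher, against 5.9% of all genes called lower and 4.94% called higher: Glul at -0.23 ± 0.0467 (adjusted p = 0.00140) and Gfap at -0.27 ± 0.0804 (adjusted p = 0.0315). Gfap did not pass without B6 control replicate 1, 2, 4 or 5 or B6 resilient replicate 1, 2, 3, 7 or 8 (adjusted p from 0.0505 to 0.0706), and Gjb6 passed without B6 resilient replicate 4 (adjusted p = 0.0346) or 8 (adjusted p = 0.0379). In susceptible D2 mice Glul alone passed, at -0.19 ± 0.0523 (adjusted p = 0.0371), against 4.28% of all genes, and Gfap stood at -0.23 (adjusted p = 0.179). The call of Glul was lost without D2 control replicate 2, 3, 4, 5 or 6 or D2 susceptible replicate 1, 2, 3 or 4 (adjusted p from 0.0524 to 0.114). The strain by susceptibility interaction of Glul was 0.37 ± 0.0804 (adjusted p = 0.0241, with 0.782% of all genes called), so that Glul was lowered more in B6 than in D2 mice, but it did not pass without B6 susceptible replicate 1 (adjusted p = 0.169) or without D2 susceptible replicate 5 (adjusted p = 0.0623).

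These vHPC values come from the libraries graded by the strain index. The stress and strain comparisons of B6 share their controls, so their values are only set side by side: Glul was -0.23, -0.56 and -1.01 in resilient B6, susceptible B6 and control D2 mice, Gfap -0.27, -0.67 and -0.97, and Gjb6 -0.17, -0.47 and -0.56. All 10 genes moved in the D2 direction in both stressed B6 groups and in susceptible D2 mice. Of the distance from B6 to D2 controls, their median position was 22.6% in resilient and 82.3% in susceptible B6 mice. In the latter they ran from 27.8% to 119%, with S100b (119%), Gja1 (116%) and Sox9 (106%) past the D2 controls. How many of all genes moved in this way was not counted. With the strain index of each library in place of the strain term, an alternative added after seeing the data, none of the 10 genes was called in resilient B6, susceptible B6 or susceptible D2 mice, and neither was any other gene. In that fit Gfap stood at -0.23, Gja1 at 0.33, Sox9 at 0.32 and Glul at -0.10 in susceptible B6 mice. With library set as a covariate, 1 of the 10 passed in susceptible B6 mice and none in resilient B6 or susceptible D2 mice. Of all genes, 202, 41 and 3 were called in these groups in that fit, against 7949, 2120 and 837 in the main fit. Markers of other cells also differed in susceptible B6 mice, and they are counted here where they passed the threshold, as 40.6% of all genes did. All 10 oligodendrocyte markers were called lower (median -0.85), as were 7 of 8 endothelial (median -0.50), 6 of 8 microglial (median -0.17) and all 6 ependymal markers (median -0.98). The ependymal mean ran from 1.85 to 2.48 log2 CPM in B6 controls and from 0.755 to 1.21 in susceptible B6 mice. Of 6 choroid plexus markers 1 was called lower, although the median of that list was -2.64. All 5 markers of cortical excitatory neurons were called higher (median 0.73), with a mean of 5.43 to 5.73 in controls and 6.09 to 6.18 in susceptible mice. Of 8 neuronal markers 4 were called higher and 1 lower (mean 8.48 to 8.57, against 8.63 to 8.70). The part of these markers in the results was not tested. Between susceptible and resilient B6 mice, 7 of the 10 genes were called, against 27.6% of all genes: Glul (-0.33), Gfap (-0.40), Gjb6 (-0.30), S100b (-0.35) and Slc1a3 (-0.12) were lower and Gja1 (0.42) and Sox9 (0.44) higher in susceptible mice. With library set as a covariate none of the 10 was called between these groups, and neither was any other gene. Sequencing set 1 held 2 susceptible B6 libraries and 1 resilient, so no calls within it are given. With B6 susceptible replicate 2 left out 3 of the 10 were called (Glul, Gfap and Gjb6), and with the strain index 2 were, Glul at -0.19 (adjusted p = 0.0340) and S100b at -0.30 (adjusted p = 0.0397). Of all genes, 2533 were called between these groups with the strain index.

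The 10 genes did not vary as a block among mice of the same group. Over the deviations from group means, the 45 pairs of genes had a median Pearson's r of 0.04 in the mPFC (n = 32 libraries), 0.211 in the BNST (n = 28) and 0.0753 in the vHPC (n = 28), and in each region some pairs were strongly positive and others strongly negative. In the mPFC Gfap and Aqp4 had r = 0.920 (rho = 0.930; adjusted permutation p = 0.000113 and 0.000225), and r was 0.911 without the 2 libraries farthest out. Gfap and Slc1a2 had r = -0.798 (rho = -0.710; adjusted permutation p = 0.000113 and 0.000338). Slc1a2 moved with the mean of 8 neuronal markers (r = 0.904, rho = 0.857; adjusted permutation p = 0.0007), while Gfap (r = -0.675, rho = -0.554) and Gja1 (r = -0.680, rho = -0.585) moved against it, with adjusted permutation p of 0.00665 and 0.00303 for r. Within library preparation sets these r values were 0.926, -0.815, 0.904, -0.696 and -0.669.

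In the BNST the closest pair was Gfap and S100b (r = 0.856, rho = 0.881; adjusted permutation p = 0.000113; r = 0.792 without the 2 farthest libraries). Both also followed the oligodendrocyte marker mean, Gfap with r = 0.881 (rho = 0.916) and S100b with r = 0.852 (rho = 0.880), each with an adjusted permutation p of 0.00014. The endfoot and gap junction genes Aqp4 and Gja1 had r = 0.846 (rho = 0.841; adjusted permutation p = 0.000113) and Glul followed the neuronal mean with r = 0.757 (rho = 0.801; adjusted permutation p = 0.00014). Without the 5 libraries high in cortical markers (n = 23) r was 0.876 for Gfap and S100b, 0.869 and 0.879 for these with the oligodendrocyte mean, 0.834 for Aqp4 and Gja1, and 0.835 for Glul with the neuronal mean. In the vHPC the strongest pair was negative, Slc1a3 and Sox9 with r = -0.750 (rho = -0.713; adjusted permutation p = 0.00225 and 0.00675). The genes of a library share its depth and its dissection, and the 70 pairs of a gene with a cell type mean were adjusted as a second family in each region.

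**Figure D5:**
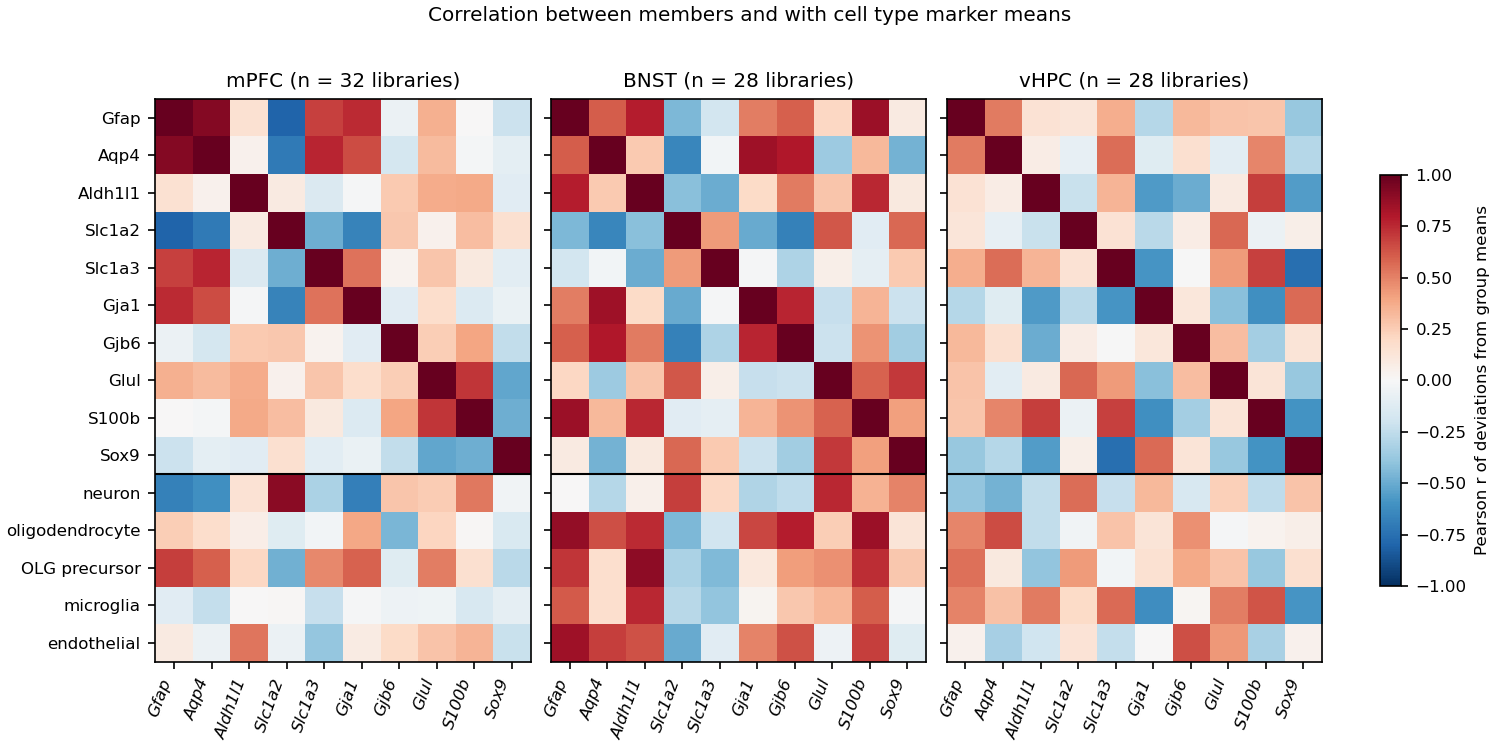
Pearson's r between the deviations of each pair of genes from their group means, and between each gene and the mean of cell type markers, for the 32 libraries of the mPFC and the 28 each of the BNST and vHPC. Gfap and Aqp4 pair closely in the mPFC, Gfap and S100b in the BNST, and Slc1a2 and Gfap run in opposite directions in the mPFC.

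Because Gfap and S100b formed the closest pair in the BNST, the 250 bases before their starts are shown. They are taken from RefSeq (GRCm38.p6), hold no annotated exon, and lie at chr11:102897201-102897450 on the minus strand for Gfap and chr10:76253586-76253835 on the plus strand for S100b; capitals mark the letters TTGGCA, a part of the binding site of nuclear factor I.
Gfap: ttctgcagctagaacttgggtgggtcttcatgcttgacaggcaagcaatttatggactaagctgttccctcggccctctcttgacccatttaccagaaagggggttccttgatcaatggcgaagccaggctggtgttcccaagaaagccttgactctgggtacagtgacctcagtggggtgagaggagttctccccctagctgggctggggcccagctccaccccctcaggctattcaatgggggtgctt
S100b: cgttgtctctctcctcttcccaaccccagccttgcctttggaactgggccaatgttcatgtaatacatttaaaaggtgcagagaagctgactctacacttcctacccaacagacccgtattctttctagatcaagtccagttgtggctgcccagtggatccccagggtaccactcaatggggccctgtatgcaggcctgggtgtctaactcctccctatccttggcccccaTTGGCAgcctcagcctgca
The searched letters, on both strands, were TTCNNNGAA (STAT), TTGGCA (part of a nuclear factor I site) and AGAACA (part of a glucocorticoid receptor site). Of all 32851 promoters of this length, 7.02%, 12.28% and 16.08% held them. Of the 8 genes with an entry, S100b held the nuclear factor I letters, at position -19 from the start, and Slc1a3 the STAT letters at -96 and the glucocorticoid letters at -24. Aqp4 and Sox9 had no entry.

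Over a broader list of 52 astrocyte genes (membrane, metabolic, secreted, receptor and transcription factor genes) strain again gave most calls. Between D2 and B6 controls 3 were higher and 16 lower in the mPFC (27.8% of all genes were called), and 14 were higher and 19 lower in the vHPC (59.3%). In the BNST none was called (2.51% of all genes), and 11 had an unadjusted p under 0.05 (13.4%). Kcnj10, the potassium channel gene of the astrocyte membrane, was higher in D2 controls by 0.99 ± 0.103 in the mPFC (adjusted p = 9.35e-09) and by 1.89 ± 0.110 in the vHPC (adjusted p = 1.13e-13), and stood at 0.74 ± 0.297 in the BNST (adjusted p = 0.253). Thbs4, a secreted thrombospondin gene, differed by -2.12 on the log2 scale in the mPFC (adjusted p = 0.00217) and by -2.26 in the vHPC (adjusted p = 1.02e-14). After CSDS, Sparcl1, a secreted synaptogenic protein gene, was the one gene of this list called in the mPFC against controls, at -0.14 ± 0.0370 in susceptible B6 mice (adjusted p = 0.0477), where 2.22% of all genes were called. The call of Sparcl1 was lost with library set (adjusted p = 0.1004), animal ID prefix (adjusted p = 0.489, with no gene called), quantile normalization (adjusted p = 0.219), the strain index (adjusted p = 0.0914) or only the groups compared (adjusted p = 0.219). With 1 library left out in turn, Sparcl1 passed in 3 of 12 fits (adjusted p from 0.0246 to 0.115), those without B6 control replicate 2 and B6 susceptible replicates 1 and 4. In the vHPC, resilient B6 mice had 2 genes of the list higher and 5 lower than controls (4.94% and 5.9% of all genes), susceptible B6 mice 12 and 15 (40.6% of all genes in either direction), and susceptible D2 mice 1 and 3 (4.28%). Kcnj10 stood at 0.60, 1.1203 and 0.48 in these groups and Thbs4 at -0.62 in resilient B6 and -0.49 in susceptible D2 mice, while the transcription factor gene Emx2 was higher in susceptible B6 mice (1.04 ± 0.230, adjusted p = 0.00106). The call of Thbs4 in susceptible D2 mice was lost without D2 susceptible replicate 4 (adjusted p = 0.0751).

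Genes that astrocytes raise when reactive were counted in the same way. Between D2 and B6 controls 5 of 27 tested were higher and 9 lower in the mPFC (27.8% of all genes called), 1 of 26 was higher in the BNST (2.51%), and 4 of 29 were higher and 20 lower in the vHPC (59.3%). The serine protease inhibitor gene Serpina3n was higher in D2 in all 3 regions, by 1.26 ± 0.0822 in the mPFC (adjusted p = 3.67e-13), 1.73 ± 0.322 in the BNST (adjusted p = 0.00114) and 2.31 ± 0.0874 in the vHPC (adjusted p = 1.37e-17). Ptgs2 was lower in D2 mPFC controls (-1.33 ± 0.195, adjusted p = 4.34e-06), and Steap4 in D2 vHPC controls (-2.76 ± 0.546, adjusted p = 0.000118). After CSDS the glucocorticoid-responsive gene Fkbp5 rose in the mPFC of susceptible B6 mice by 0.38 ± 0.105 (adjusted p = 0.0490), the one call of the list there (2.22% of all genes), and none was called against controls in the BNST. The call of Fkbp5 was lost with library set (adjusted p = 0.1004), animal ID prefix (adjusted p = 0.635, with no gene called), quantile normalization (adjusted p = 0.0597), the strain index (adjusted p = 0.0664) or only the groups compared (adjusted p = 0.132). With 1 library left out in turn, Fkbp5 passed in 3 of 12 fits (adjusted p from 0.0291 to 0.124), those without B6 control replicate 6 and B6 susceptible replicates 1 and 4. Against their controls in the vHPC, 1 was higher and 5 were lower in resilient B6 mice (4.94% and 5.9% of all genes), 2 and 18 with susceptibility in B6 (40.6% in either direction), and 1 and 1 with susceptibility in D2 (4.28%). Serpina3n rose in resilient B6 mice by 0.75 ± 0.0817 (adjusted p = 3.62e-07) and in susceptible D2 mice by 0.55 ± 0.0917 (adjusted p = 0.000375), and the interferon-induced GTPase gene Iigp1 stood at -0.57 in resilient and -1.54 in susceptible B6 mice, both called. In susceptible B6 mice Steap4 stood at -2.22 ± 0.669 (adjusted p = 0.0107), and in susceptible D2 mice Ptgs2 at -0.38 ± 0.100 (adjusted p = 0.0274). Iigp1 in resilient B6 mice was lost without B6 control replicate 1, 3, 4 or 6 or B6 resilient replicate 2, 3 or 6 (adjusted p up to 0.0793). Ptgs2 in susceptible D2 mice was lost without D2 control replicate 1, 3 or 5 or D2 susceptible replicate 1, 2 or 4 (adjusted p up to 0.0996), and Steap4 in susceptible B6 mice without B6 susceptible replicate 3 (adjusted p = 0.0551). These values too come from the vHPC libraries graded by the strain index. With the strain index in place of strain, none of the genes of both lists named here was called in the vHPC after CSDS.

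Outside the 10 genes, those whose deviations from group means were most like theirs, by the median Pearson's r with the 10, were Elovl5 (0.50), Scd2, Gm12966, Mat2a and Vstm4 in the mPFC, over 32 libraries. In the BNST they were Npc1 (0.72), Plekhh1, Ttll5, Dock5 and Gprc5b, and in the vHPC Tecr (0.44), Tmem147, Rplp0, D8Ertd738e and Mrpl33, over 28 libraries each. Each of these genes had a positive r with 7 or 8 of the 10 and a negative r with the rest. The lowest r was -0.464 for Elovl5 in the mPFC, -0.654 for Dock5 in the BNST and -0.846 for Tecr in the vHPC. The 3 sets had no gene in common.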

How the data were processed

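Total RNA was depleted of ribosomal RNA and sequenced in 32 mPFC, 28 BNST and 28 vHPC libraries. Per the labels and the study's methods, adapters were trimmed, PCR duplicates removed, reads aligned with STAR to GRCm38 and counted over exons with HTSeq. For the BNST the authors deposited these counts, unfiltered and without batch adjustment. For the mPFC and vHPC the deposited values are voom log2 CPM, kept for genes that reached 1 CPM in 6 or more libraries, adjusted by ComBat for library preparation set and, in the vHPC, sequencing set. Depth is therefore given for the BNST only; adjusted values carry fewer degrees of freedom than the fits assume.

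BNST counts were scaled by TMM, filtered in the same way (17515 of 48795 genes) and tested with edgeR 4.0.16 (robust quasi-likelihood). The mPFC (18946 genes) and vHPC (19559) values were tested with limma 3.58.1 (robust eBayes). All groups of a region entered 1 fit, in R 4.3.3, and Benjamini-Hochberg adjustment ran over all genes, with calls at 0.05. Printed BNST levels are TMM-scaled log2 CPM with a prior count of 0.5; levels per length divide by exon length. Each fit was tested on simulated data. Correlations used 100000 permutations within groups. Alternatives were DESeq2 1.42.0, RLE factors, no TMM, no filter, voom with ComBat (sva 3.50.0) and limma, quantile normalization, batch covariates, subsets, and each library left out; the strain index and oligodendrocyte covariates, and the BNST fits without libraries above 5 log2 CPM in cortical markers, were added after seeing the data.

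Groups come from the labels; library sets come from the study's supplement. Each library of a region is a separate mouse, so p-values measure the spread between mice. The genes and lists were chosen with earlier results of these data known. All 10 genes are named throughout; of the broader and reactive lists, the genes past the threshold with the 2 highest and 2 lowest fold changes in each comparison with controls and between strains are named, together with the 5 genes most like the 10 in each region. Of the cortical marker list, 1 gene is not reported here and was left out of the marker means.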

Additional observations from a re-analysis of the deposited data

Results flagged for a closer look

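In the BNST, Aldh1l1 in B6 resilient replicate 3 was at 4.385 log2 CPM, against 4.876 for the nearest and 5.01 for the highest of the 5 libraries, a gap of 0.786 of the whole range. In the mPFC, Slc1a2 in B6 susceptible replicate 4 was at 11.27 log2 CPM, against 11.69 for the nearest of the 6, a gap of 0.684 of the range; the same library had the lowest neuronal marker mean of its group (8.69) and the highest Gfap (6.85). Of 140 sets of values checked for a library far from the rest these 2 stood out, and chance would give about 7.

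The response of Glul to CSDS in the vHPC differed between the strains by 0.3711 (adjusted p = 0.0241 by limma). It did not pass without B6 susceptible replicate 1 (0.29, adjusted p = 0.169) or D2 susceptible replicate 5 (0.33, adjusted p = 0.0623), and it did not pass with the strain index in place of strain.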

How the results depend on the processing

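The number of the 10 genes called stayed within 1.5 times its value in all mPFC comparisons and in all BNST comparisons with controls under every alternative that kept all libraries. In the BNST, DESeq2 called 1 gene between strains and 3 in the interaction, and voom with ComBat and limma called 1 between strains, against none. Of all genes, DESeq2 called 660 between strains and 223 in the interaction, against 439 and 0 by edgeR. Limma after voom and ComBat called 583 of all genes between strains. In the vHPC, with library set as covariate the count was 0 for susceptible against resilient B6 mice (from 7), and 0 over all genes (from 5404). The other vHPC comparisons of that fit rest on 1 B6 control or 1 susceptible D2 library, so their counts are not given. In the main fit the counts were 2 for resilient B6 mice, 7 for susceptible B6, 1 for susceptible D2, 10 for strain and 1 for the interaction. Over all genes they were, in the same order, 2120, 7949, 837, 11603 and 153. With sequencing set as covariate the counts of the 10 were 0 for resilient B6 and 0 for susceptible D2, beside 558 and 380 of all genes. In susceptible B6 mice 7238 of all genes were called with sequencing set as covariate and 7623 with the animal ID prefix. Within sequencing set 1, which held 2 susceptible B6 libraries, 5850 were. Sequencing set 1 held 1 resilient B6 and 1 susceptible D2 library, so counts within it are not given for comparisons that use these groups. With the strain index the counts of the 10 were 0, 0, 0, 2 and 0 for resilient B6, susceptible B6, susceptible D2, susceptible against resilient B6 and the interaction. Over all genes these were 0, 0, 0, 2533 and 0. With only the groups compared the counts of the 10 were 1, 0, 1 and 4 for resilient B6, susceptible D2, susceptible against resilient B6 and the interaction, beside 1260, 708, 1017 and 1158 of all genes. With the animal ID prefix the interaction had 0 of the 10. These causes were not tested, beyond the fewer libraries of the subsets.

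Leaving out each library, the counts ran from 0 to 1 for susceptible B6 mice in the mPFC, 5 to 6 for strain in the mPFC, 0 to 1 for strain and 0 to 1 for the interaction in the BNST, and in the vHPC 1 to 3 for resilient B6, 6 to 8 for susceptible B6, 0 to 1 for susceptible D2, 3 to 8 for susceptible against resilient B6, 9 to 10 for strain and 0 to 1 for the interaction.

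Single values were followed only for genes with an unadjusted p under 0.05 in the main fit of a comparison, a choice that favours few turns. Among these, directions turned in 8 of 547 single values, all in the vHPC and none past the threshold after turning. In resilient B6 mice Gjb6 became 0.0247 within sequencing set 1, and Gfap 0.0407, Gjb6 0.00629 and Glul 0.0901 with the strain index; in susceptible D2 mice Gfap became 0.117 and Glul 0.0526 with library set, and Glul 0.0473 with the strain index; Aldh1l1 became 0.156 between susceptible and resilient B6 mice within sequencing set 1. No direction turned in the 852 values with a library left out. No paired analysis was possible because the replicate numbers follow the accession order and no mouse is in more than 1 group of a region. With the ID prefix as covariate the strain comparisons and the BNST comparison of resilient D2 mice could not be fitted. Bulk values, 3 mice in the smallest groups and batches that go with groups in the vHPC limit what these comparisons can show.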
